A study of Mus musculus with 2 samples.

Results

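Prg4, Cytl1, Clu, 1500015O10Rik, Mustn1, Cilp2 and Fam180a are 7 of the 24866 genes in a table of RNA counts from single sorted femur cells, and they are described here together as candidate genes of joint surfaces. They were picked by name, with earlier values of these cells in view, and each was then read in the 653 of 658 wells that had at least 500 detected genes and at most 20% mitochondrial counts. All cells came from 1 group: C57/B6 mice with the genotype CTSK-cre+ mTMG at postnatal day 6, 2 littermates, with 318 kept cells of animal 1 on plate 47 and 335 of animal 2 on plate 48. Cre stands under the promoter of cathepsin K (Ctsk), and a cell in which it has acted makes membrane GFP, so the sorted cells include any with past activity of that promoter as well as those with present activity. Femurs were digested with collagenase and GFP-positive cells were sorted 1 to a well. No cells from other mice or without the reporter are compared, and with 1 plate per animal, the animals cannot be told apart from the plates. Values are CPM, the summed counts of a gene in a set of cells scaled to their total counts, and a gene is called detected in a cell at 5 counts or more.

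The sliding surfaces of a joint are made by superficial articular chondrocytes and by the synovial lining, and both coat themselves with lubricin, the mucin-like product of Prg4. Underneath lies hyaline cartilage built of type II collagen and aggrecan, and at the edges of the joint it meets tendon, ligament and periosteum, whose cells make type I collagen. Cytl1 encodes a small secreted protein of cartilage, Clu the secreted chaperone clusterin, and Cilp2 a matrix protein related to cartilage intermediate layer protein. The RefSeq name of 1500015O10Rik is Ecrg4, the gene of the peptide precursor augurin, and Mustn1 encodes a small nuclear protein of muscle and skeleton.

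On mm10 the genes lie on 5 chromosomes, by GENCODE gene models. Prg4 spans chr1:150449412-150466165 on the minus strand, and 1500015O10Rik spans chr1:43730602-43742578 on the plus strand. Clu (chr14:65968483-65981547) and Mustn1 (chr14:30879200-30881610) share a chromosome and are both on the plus strand. Cytl1 spans chr5:37735519-37739820 on the plus strand, Cilp2 chr8:69880369-69887687 on the minus strand, and Fam180a chr6:35312668-35326141 on the minus strand. All 7 are protein-coding.

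RefSeq promoter sequences on GRCm38.p6 were matched for 5 of the 7 genes. The 250 bases before the start site are shown for 1500015O10Rik and Fam180a, the pair that varied together most closely across cells, and for Cytl1, whose counts lay almost wholly in cartilage-expressing classes. Each reads 5′ to 3′ on the strand of its gene, and capitals mark a motif match.
1500015O10Rik, chr1:43730352-43730601, plus strand: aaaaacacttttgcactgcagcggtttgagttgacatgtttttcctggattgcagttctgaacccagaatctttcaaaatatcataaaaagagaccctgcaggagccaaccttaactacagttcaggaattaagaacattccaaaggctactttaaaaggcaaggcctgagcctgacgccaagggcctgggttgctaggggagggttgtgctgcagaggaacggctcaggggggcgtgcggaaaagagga
Fam180a, chr6:35326142-35326391, minus strand: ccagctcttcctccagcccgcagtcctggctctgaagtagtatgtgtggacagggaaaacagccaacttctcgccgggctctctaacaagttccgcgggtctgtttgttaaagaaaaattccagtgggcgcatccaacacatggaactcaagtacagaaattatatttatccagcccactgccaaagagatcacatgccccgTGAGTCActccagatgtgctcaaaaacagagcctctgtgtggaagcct
Cytl1, chr5:37735269-37735518, plus strand: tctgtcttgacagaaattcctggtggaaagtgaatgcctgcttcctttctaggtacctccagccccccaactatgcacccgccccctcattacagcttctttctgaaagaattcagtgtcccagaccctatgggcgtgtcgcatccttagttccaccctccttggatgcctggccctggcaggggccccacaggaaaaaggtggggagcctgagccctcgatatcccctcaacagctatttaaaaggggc
The 6 motifs searched, on both strands, were TGANTCA for AP-1, TATAAA for the TATA box, ACAAAG for SOX factors, CAGCTG as an E-box, CCGGAAG for ETS factors and TGACGTCA as a CRE. The only match in the 5 promoters was TGAGTCA in that of Fam180a, starting 48 bases before the start site and overlapping no other motif. TGANTCA occurs in 6.75% of 32851 mouse promoter windows of the same length, TATAAA in 12.4%, ACAAAG in 16.5%, CAGCTG in 13.0%, CCGGAAG in 6.91% and TGACGTCA in 1.55%. The other letters searched were simply not in these windows.

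Kept cells held a median of 101207 counts and 2185.5 genes in animal 1, and 119126 counts and 2177 genes in animal 2, with 9767 to 675621 counts per cell over both. Clustering on marker genes, with the 7 genes left out, gave 8 classes. Of these, 6 carried the markers of a named list: chondrocyte-like (class 1, 88 cells in animal 1 and 92 in animal 2), stromal-like (class 3, 62 and 44), tendon and ligament-like (class 4, 46 and 42), periosteal fibroblast-like (class 5, 28 and 44), pericyte and smooth muscle-like (class 7, 14 and 5) and osteoblast-like (class 8, 9 and 6). Class 2 (41 and 86 cells), led by Smoc1, Barx1, Siah2 and Wif1, stayed unnamed. Its best list was that of articular and synovial markers, but only Creb5 and Vit of the 10 were raised. The summed level of those 10 was 541 CPM in class 2, under the 1077 CPM of class 4 and the 559 CPM of class 5. That of 15 chondrocyte markers was 13300 CPM in class 2 and 37374 CPM in class 1. Class 6 (30 and 16 cells), led by Alpl, Crabp1 and Mmp13, was also unnamed. Ctsk itself was detected in 39.4% of cells. No gene of the endothelial, macrophage, neutrophil, erythroid, lymphoid or skeletal muscle lists reached detection in 5% of cells. Spreads over the n = 2 littermates include any difference between the plates.

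The 7 genes did not mark 1 class. Prg4, Cytl1, Clu and 1500015O10Rik had their highest mean level in class 2, Fam180a in chondrocyte-like cells, Cilp2 in tendon and ligament-like cells, and Mustn1 in pericyte and smooth muscle-like cells. Since the genes were chosen with these values known, levels and shares below are descriptions and carry no test. CPM are not divided by transcript length, so they rank classes for a gene and not genes against each other. The words articular and synovial surface therefore name what the genes are known for and not a population of cells found here.

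**Figure D1:**
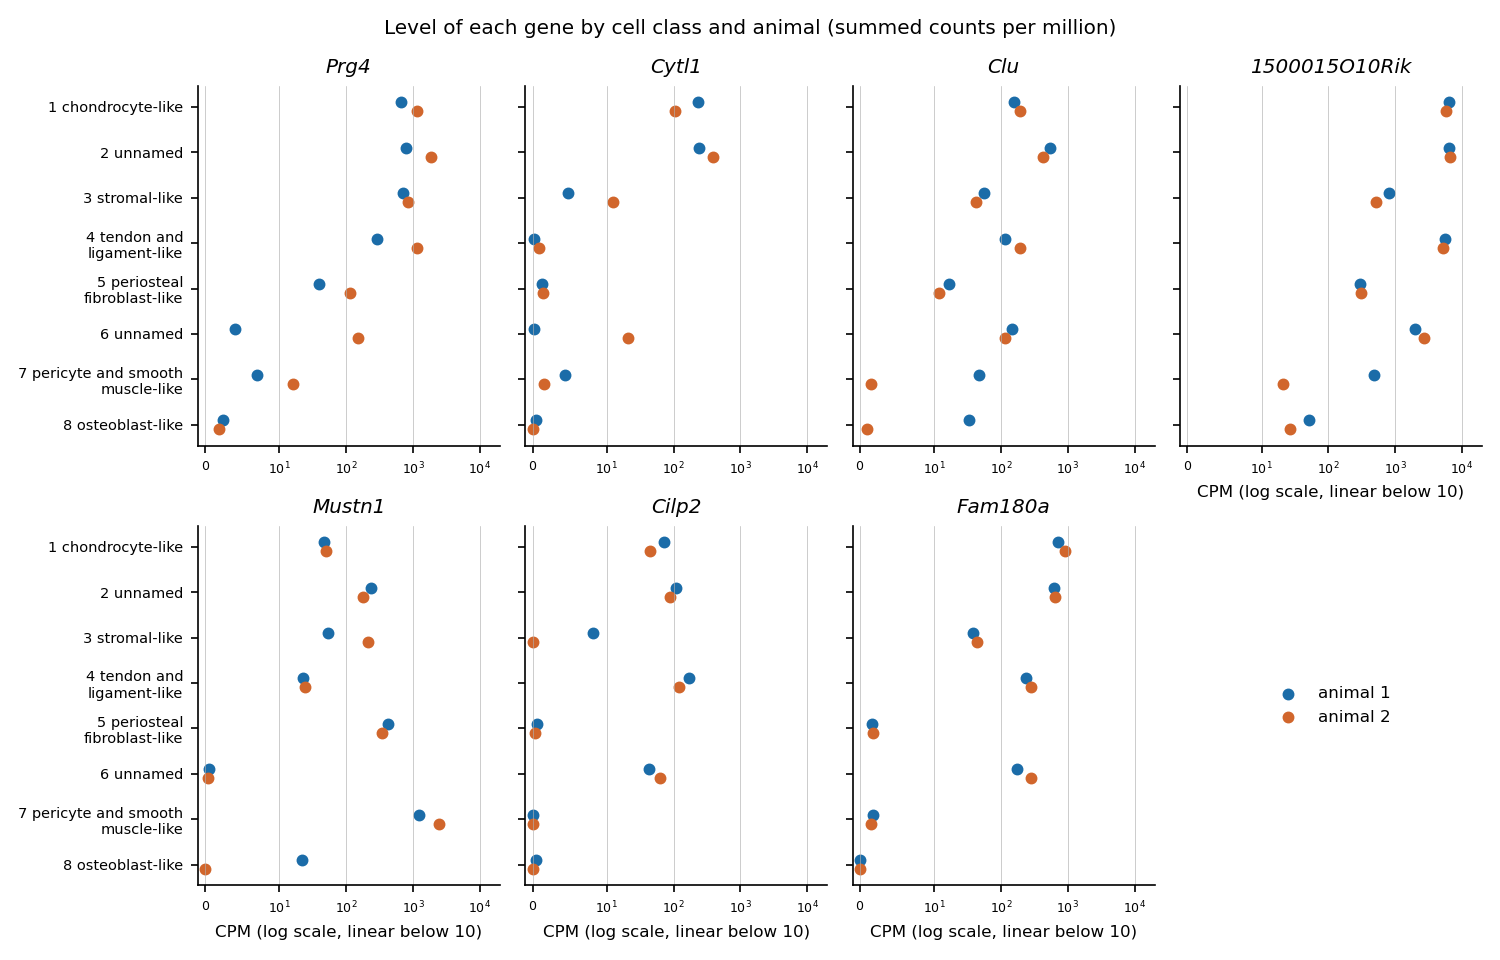
CPM of each gene (x axis, log scale that is linear below 10) in the 8 cell classes (rows), with 1 point per animal. Prg4 spreads over classes 1 to 4, Cytl1 lies in classes 1 and 2, and Mustn1 is highest in class 7 with 1247 CPM in animal 1 and 2476 CPM in animal 2.

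Prg4, the lubricin gene, was detected in 46 of 318 cells of animal 1 (14.5%, exact 95% interval 10.8% to 18.8%) and in 79 of 335 cells of animal 2 (23.6%, interval 19.1% to 28.5%). Its summed level was 446 CPM in animal 1 and 1033 CPM in animal 2, so the plates differed in both measures. Counts were split into a low and a high range. In 308 cells the count was 0 and in 220 it was 1 to 4, while only 14 cells had 5 to 19, 34 had 20 to 99 and 77 had 100 or more. Among detected cells the lowest, median and highest CPM were 30.2, 675 and 21863 in animal 1, and 49.4, 2580 and 33564 in animal 2. The cells of animal 2 thus had higher medians as well as a larger detected share. Depth was close in both sets: the median was 102026 counts in detected cells and 100020 in the others of animal 1, and 110530 in detected cells and 120410 in the others of animal 2.

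**Figure D2:**
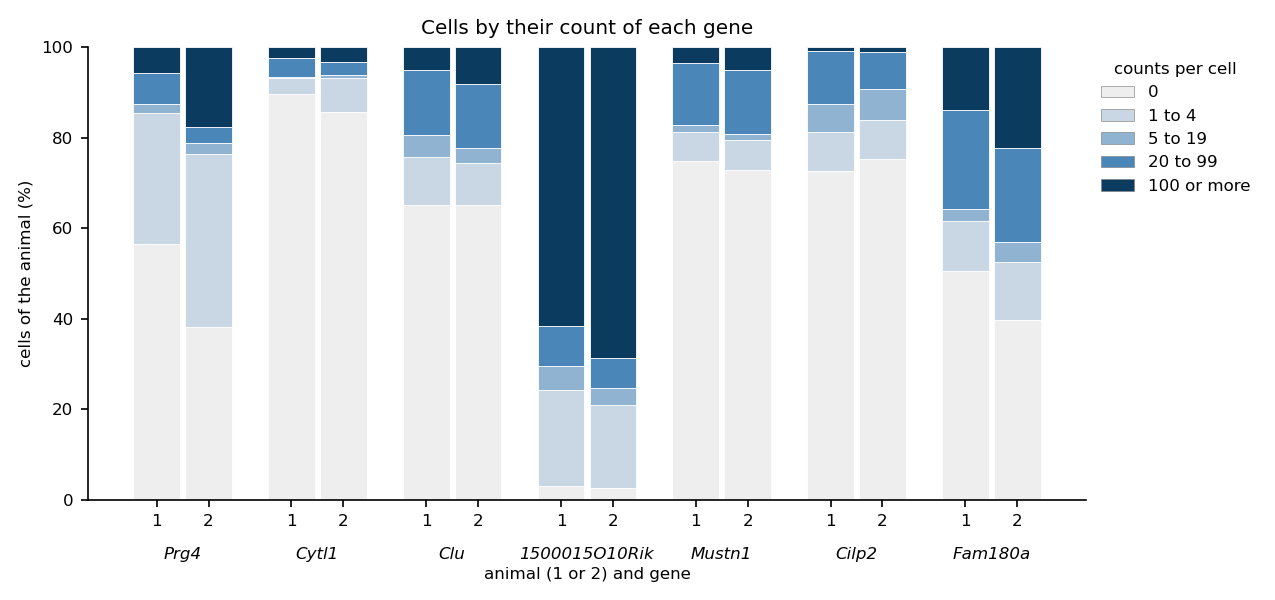
Share of the kept cells of each animal (y axis, %) by their count of each gene (shades, from 0 to 100 or more), with animals 1 and 2 side by side. Prg4 has few cells at 5 to 19 counts (14 of 653) between 220 cells at 1 to 4 and 77 at 100 or more, and 1500015O10Rik reaches 100 counts in 426 cells.

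By class, Prg4 ranged over nearly 3 orders of magnitude. In class 2 it stood at 773 CPM in animal 1 and 1864 CPM in animal 2, and it was detected in 29.3% and 37.2% of those cells. Chondrocyte-like cells had 660 and 1163 CPM with 13.6% and 27.2% of cells detected. Stromal-like cells had 717 and 833 CPM from only 6 detected cells in each animal, 9.68% and 13.6% of the class. Tendon and ligament-like cells had 287 CPM in animal 1 and 1160 CPM in animal 2, with 26.1% and 26.2% of cells detected. The ranges of the 2 animals overlapped between each of these 4 classes and the next, so their order is not set by these data. All 4 lay above the other classes in both animals. Periosteal fibroblast-like cells had 39.4 and 113 CPM, and class 6 had 3.99 and 151 CPM. In pericyte and smooth muscle-like cells the level was 6.98 and 16.2 CPM, and in osteoblast-like cells 2.40 and 1.79 CPM with none of 15 cells detected, which at 9 and 6 cells allows shares of up to 33.3% and 50%. Intervals and such limits cover counting error only.

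Single wells carried much of Prg4 in the smaller sets. The well with most counts held 45.3% of the Prg4 of class 2 in animal 1 and 10.6% in animal 2. In stromal-like cells the top well held 43.4% and 37.2%, and in tendon and ligament-like cells 36.7% and 40.5%. In periosteal fibroblast-like cells of animal 2 it held 92.9%, so that level is close to the record of 1 cell. Over all cells, the top well held 4.64% of the gene's counts. Of the 125 detected cells, 35.2% were in class 2, 29.6% were chondrocyte-like, 18.4% tendon and ligament-like and 9.6% stromal-like. Class 2 made up 19.4% of all cells, the chondrocyte-like class 27.6%.

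Quadrants of the plates gave a further view of the spread. The detected share of Prg4 ran from 11.0% to 17.4% over the 4 quadrants of animal 1 and from 19.5% to 28.0% over those of animal 2. The ranges of the animals did not overlap. Neither did CPM, with 380 to 568 in animal 1 and 620 to 1665 in animal 2. When every well was thinned to 10000 counts, which left out 1 well, at least 1 Prg4 count was found in 16.7% of cells of animal 1 and 26.9% of animal 2. The larger share in animal 2 was thus also seen at equal depth. Class 2, where Prg4 was highest, made up 12.9% of animal 1 and 25.7% of animal 2, and its part in the difference was not tested.

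Cytl1, the small secreted cartilage protein, was the rarest of the 7 by detection. It was found in 22 cells of animal 1 (6.92%, interval 4.39% to 10.3%) and in 23 of animal 2 (6.87%, interval 4.40% to 10.1%), at 97.2 and 125 CPM summed. Its animals hardly differed in share. Class 2 had 242 CPM in animal 1 and 389 CPM in animal 2, and chondrocyte-like cells had 230 and 104 CPM. These 2 classes held 41 of the 45 detected cells and, of all Cytl1 counts, 53.97% and 44.1%. No tendon and ligament-like cell had the gene detected (0 of 46 and 0 of 42, which allows shares of up to 6.52% and 7.14%), and its level there was 0.233 and 0.920 CPM. That class had Prg4 in 26.1% and 26.2% of its cells, so the classes with both genes were only some of those with Prg4. The highest single well held 806 counts in animal 1 and 1143 in animal 2, or 23.3% and 21.7% of the gene's counts in that animal.

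Clu, clusterin, was detected in 77 cells of animal 1 (24.2%, interval 19.6% to 29.3%) and 86 of animal 2 (25.7%, interval 21.1% to 30.7%). In class 2 it stood at 549 CPM in animal 1 and 429 CPM in animal 2, above every other class in both. Chondrocyte-like cells had 157 and 195 CPM, tendon and ligament-like cells 114 and 194 CPM, and class 6 146 and 115 CPM. The tendon and ligament-like range overlapped those of both others, which did not overlap each other. Clu was low in periosteal fibroblast-like cells, at 16.9 and 12.0 CPM with 1 detected cell in each animal. The share of detected cells was 41.5% in class 2 and 42.0% in chondrocyte-like cells of animal 1, and 45.3% in class 2 and 32.6% in chondrocyte-like cells of animal 2, with intervals that overlap in each animal. The osteoblast-like and pericyte-like levels rested on 1 detected cell each, both in animal 1.

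1500015O10Rik, the augurin gene, was the most widely detected, in 241 cells of animal 1 (75.8%) and 265 of animal 2 (79.1%). Every chondrocyte-like cell had it, 88 of 88 and 92 of 92, at 6483 and 5853 CPM. Class 2 had 6361 and 6650 CPM, with 37 of 41 and 86 of 86 cells detected, and its range overlapped that of the chondrocyte-like class. Tendon and ligament-like cells followed at 5578 and 5127 CPM with 45 of 46 and 40 of 42 cells. These 3 classes lay far above class 6 (2014 and 2729 CPM) and stromal-like cells (801 and 515 CPM). Periosteal fibroblast-like cells had 298 and 310 CPM, and osteoblast-like cells 51.3 and 26.9 CPM. The gene was therefore split by class more than by animal: its 2 animals were 3754 and 4131 CPM overall. In 128 cells it had 1 to 4 counts and in only 19 cells 0, so a count of at least 1 was near universal. Among all 7 genes it was the least tied to single wells, with 0.700% of its counts in the top well.

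Fam180a, for which no role is given here, was detected in 122 cells of animal 1 (38.4%, interval 33.0% to 44.0%) and 159 of animal 2 (47.5%, interval 42.0% to 53.0%). Chondrocyte-like cells had 722 and 900 CPM with 78.4% and 80.4% detected, above class 2 with 628 and 645 CPM and 58.5% and 70.9% detected. Tendon and ligament-like cells had 239 and 281 CPM and class 6 had 174 and 285 CPM, which overlapped. Stromal-like cells had 37.8 and 43.8 CPM. The gene was detected in none of 28 and 44 periosteal fibroblast-like cells, which allows up to 10.7% and 6.82%, and its levels of 1.66 and 1.71 CPM there were far under those of chondrocyte-like cells. No pericyte-like and no osteoblast-like cell had it detected. Of all Fam180a counts, 60.5% were in chondrocyte-like cells and 26.7% in class 2.

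Cilp2, the matrix protein, was detected in 60 cells of animal 1 (18.9%) and 54 of animal 2 (16.1%), at 61.1 and 49.98 CPM. It was highest in tendon and ligament-like cells at 172 and 119 CPM, then in class 2 at 107 and 88.9 CPM, and these ranges did not overlap. Chondrocyte-like cells had 72.9 and 44.0 CPM and class 6 had 43.4 and 62.5 CPM. Elsewhere it was near 0: 2 of 106 stromal-like cells had it, and none of the periosteal fibroblast-like, pericyte-like or osteoblast-like cells did. Counts were low, with only 7 cells at 100 or more and 43 at 5 to 19, so its detected share moved most when the minimum was raised. At 20 counts it was found in 10.9% of cells as a mean of the animals, against 17.5% at 5 counts.

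Its relative Cilp, cartilage intermediate layer protein, was detected in 20 cells of animal 1 and 22 of animal 2. Cilp was also highest in tendon and ligament-like cells, at 143 and 123 CPM, but the next class was the stromal-like one, where Cilp2 was almost missing. Both genes were detected in 3 cells of animal 1 and 1 of animal 2, counts too small to read against the share of cells with Cilp2.

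Mustn1, the nuclear protein of muscle and skeleton, went with other classes than the rest. It was detected in 60 cells of animal 1 (18.9%) and 69 of animal 2 (20.6%). Pericyte and smooth muscle-like cells had 1247 CPM in animal 1 and 2476 CPM in animal 2, with 10 of 14 and 4 of 5 cells detected. Periosteal fibroblast-like cells had 424 and 346 CPM with 39.3% and 40.9% detected. Class 2 followed at 234 and 181 CPM, and it overlapped with stromal-like cells at 52.5 and 214 CPM. Chondrocyte-like cells had 47.1 and 49.0 CPM, and in class 6 none of 30 and 16 cells had the gene detected.

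Of the 10 pericyte and smooth muscle markers, 9 were detected in a larger share of cells with Mustn1 than without it, the exception being Cspg4. The gap was small for Kcnj8 (3.88% with Mustn1 and 3.63% without), and Cnn1 was detected in 1 cell with Mustn1 and 2 without. The count of 9 was not set beside the share over all genes. Of the 129 Mustn1-detected cells, 18 had Acta2 (14.0%), 15 Tagln (11.6%), 12 Myh11 (9.30%) and 19 the pericyte gene Rgs5 (14.7%). Of the 524 cells without Mustn1, 39 had Acta2 (7.44%), 13 Tagln (2.48%), 1 Myh11 (0.191%) and 18 Rgs5 (3.44%). Of the skeletal muscle list, the regulators Myod1 and Myog were detected in no Mustn1-detected cell and Acta1 and Myl1 in 1 each, while Des was detected in 6 (4.65%) against 4 of the others (0.763%). The smooth muscle markers were part of what defined class 7. The largest number of Mustn1-detected cells, 31.0%, was in class 2 and only 10.9% in class 7.

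Cells differed widely in how many of the 7 genes they held. No gene was detected in 86 cells, 1 in 160, 2 in 163, 3 in 130, 4 in 87, 5 in 23 and 6 in 4, and no cell had all 7. At least 3 were found in 88 of 127 class 2 cells (69.3%) and in 110 of 180 chondrocyte-like cells (61.1%). The share was 33.0% in tendon and ligament-like cells and 21.7% in class 6. In stromal-like cells it was 4.72% and in periosteal fibroblast-like cells 2.78%, although Prg4 stood among the upper classes in the stromal-like one. Of the 4 cells with 6 genes, 3 were in class 2 and 1 was chondrocyte-like.

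**Figure D3:**
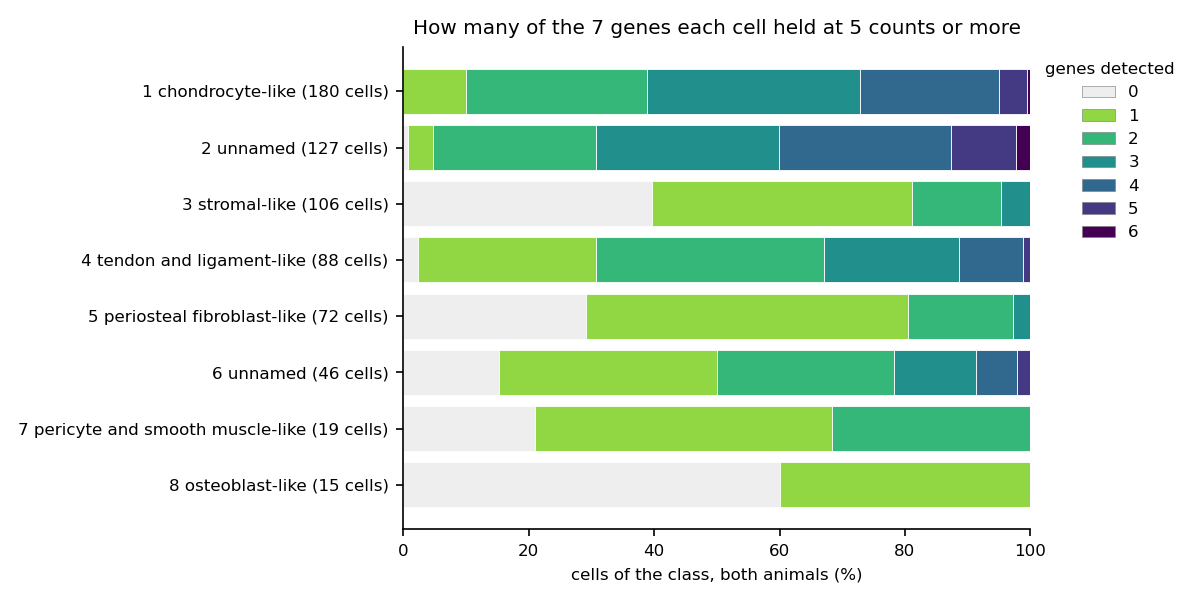
Share of cells of each class (x axis, %, both animals together) by how many of the 7 genes were detected at 5 counts or more (shades). At least 3 were detected in 69.3% of class 2 and 61.1% of chondrocyte-like cells, against 2.78% of periosteal fibroblast-like cells.

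Cells with Prg4 were set beside cells without it. Cytl1 stood at 355 CPM in Prg4-detected cells and 56.2 CPM in the others of animal 1, and at 445 CPM in Prg4-detected cells and 31.2 CPM in the others of animal 2. It was detected in 8 of 46 Prg4-detected cells (17.4%) and 14 of 272 others (5.15%) in animal 1, and in 12 of 79 Prg4-detected cells (15.2%) and 11 of 256 others (4.30%) in animal 2. Cytl1 was therefore higher beside Prg4 in both animals, by 2.96 as a mean on the log2(CPM + 10) scale. That scale understates the change of low genes. Of the 45 Cytl1-detected cells, 20 also had Prg4. In class 2 alone the share with Cytl1 was 33.3% of Prg4-detected and 10.3% of other cells in animal 1, and 25% of Prg4-detected and 5.56% of other cells in animal 2, with intervals that overlap. The level there differed little in animal 1, at 289 CPM beside Prg4 and 223 CPM without it. In animal 2 it was 876 CPM beside Prg4 and 94.6 CPM without it. Chondrocyte-like cells had Cytl1 in 25% beside Prg4 and 14.5% without it in animal 1. In animal 2 these shares were 12% and 8.96%, and the intervals overlap in each animal. Levels in that class were 905 and 119 CPM in animal 1, and 298 and 39.0 CPM in animal 2.

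Clu was at 338 CPM in Prg4-detected cells and 123 CPM in the others of animal 1, and at 271 CPM in Prg4-detected cells and 169.8 CPM in the others of animal 2. 1500015O10Rik was at 4355 CPM beside Prg4 and 3659 CPM without it in animal 1, and at 5271 CPM beside it and 3799 CPM without it in animal 2. Fam180a was at 382 CPM beside Prg4 and 338 CPM without it in animal 1, and at 546 CPM beside it and 458 CPM without it in animal 2. Over all cells these 3 were higher beside Prg4 in both animals, but the gaps of 1500015O10Rik and Fam180a were small against the distances between classes. The direction did not hold within classes. In class 2 Fam180a was at 427 CPM beside Prg4 and 709 CPM without it in animal 1, and at 417 CPM beside it and 784 CPM without it in animal 2. It was also lower beside Prg4 in both animals in stromal-like cells and in tendon and ligament-like cells, where it was at 165 CPM beside Prg4 and 266 CPM without it in animal 1, and at 193 CPM beside it and 319 CPM without it in animal 2. In chondrocyte-like cells Fam180a was higher beside Prg4 in both animals. Clu took opposite directions in the 2 animals in each of classes 1 to 4: it was lower beside Prg4 in class 1 of animal 1 and in classes 2, 3 and 4 of animal 2, by little in class 2 (417 CPM beside Prg4 and 437 CPM without it). Within chondrocyte-like cells 1500015O10Rik was at 5814 CPM beside Prg4 and 6593 CPM without it in animal 1, and at 5407 CPM beside it and 6003 CPM without it in animal 2, the other direction.

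Over all cells Mustn1 had no common direction: it was at 148 CPM beside Prg4 and 126 CPM without it in animal 1, and at 114 CPM beside it and 189.6 CPM without it in animal 2. Within each of classes 1 to 4 it was lower beside Prg4 in both animals. In class 2 it was at 185 CPM beside Prg4 and 254 CPM without it in animal 1, and at 154 CPM beside it and 198 CPM without it in animal 2. The gap was small in chondrocyte-like cells of animal 2, at 47.3 CPM beside Prg4 and 49.6 CPM without it, and the stromal-like class held only 6 Prg4-detected cells in each animal. Cilp2 was at 57.4 CPM beside Prg4 and 61.7 CPM without it in animal 1, and at 19.5 CPM beside it and 58.9 CPM without it in animal 2. Within classes 1, 2 and 4 Cilp2 stood lower beside Prg4 in both animals. In class 2 it was at 58.3 CPM beside Prg4 and 127 CPM without it in animal 1, and at 24.0 CPM beside it and 128 CPM without it in animal 2. In chondrocyte-like cells it was at 35.3 CPM beside Prg4 and 79.0 CPM without it in animal 1, and at 15.3 CPM beside Prg4 and 53.6 CPM without it in animal 2. In tendon and ligament-like cells it was at 141 CPM beside Prg4 and 183 CPM without it in animal 1, and at 35.3 CPM beside Prg4 and 156 CPM without it in animal 2. The share of cells with Cilp2 did not follow in tendon and ligament-like cells of animal 1, where it was 50% beside Prg4 and 35.3% without it. These sets hold as few as 11 Prg4-detected cells, and in all of them the intervals of the shares overlap.

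**Figure D4:**
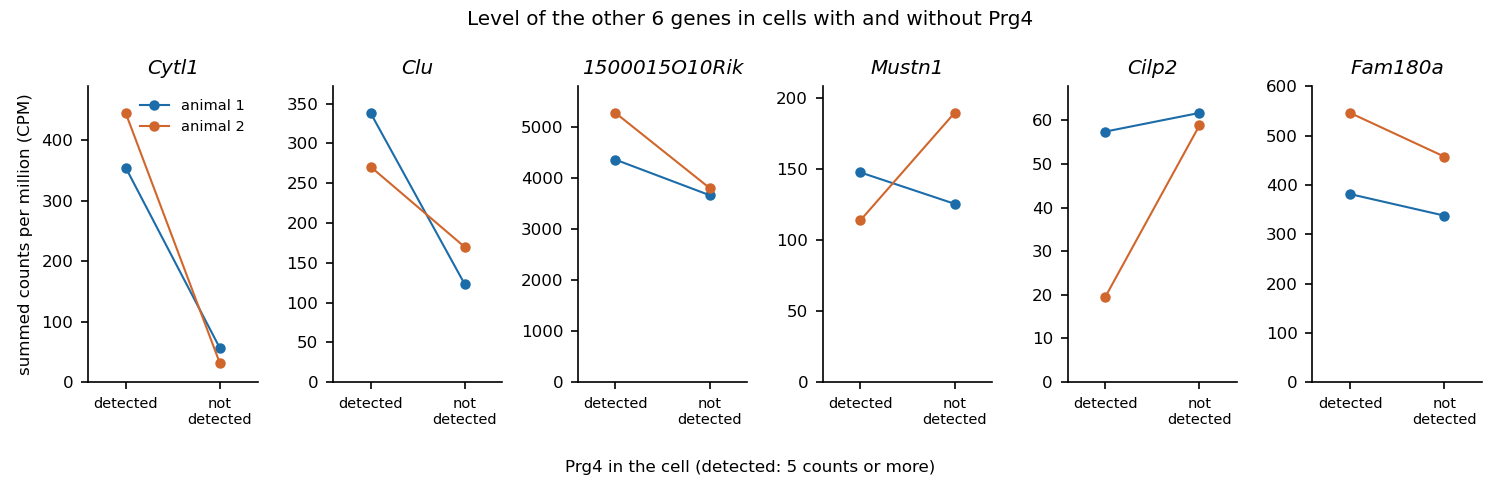
CPM (y axis, from 0) of the other 6 genes in cells with Prg4 detected (left) and not detected (right), with 1 line per animal. Cytl1 is higher beside Prg4 in both animals, while Mustn1 over all cells runs in opposite directions in the 2 animals.

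By rank, the genes followed Prg4 only weakly across single cells. The Pearson correlation of Cytl1 with Prg4 was larger, with a mean of 0.22. The Spearman correlation with Prg4, taken within each animal over 318 and 335 cells that share a plate and differ in depth, averaged 0.09 for Clu, 0.09 for 1500015O10Rik, 0.08 for Cytl1, 0.08 for Fam180a, 0.06 for Cilp2 and 0.04 for Mustn1. Weak values of this kind in sparse counts are not read as a relation. Of the 21 pairs, 1500015O10Rik with Fam180a had the highest mean, 0.48 in animal 1 and 0.44 in animal 2, and 277 of the 281 cells with Fam180a had both. Next were 1500015O10Rik with Cilp2 (0.38 and 0.28) and with Clu (0.28 and 0.31). The pair of 1500015O10Rik and Mustn1 was the only one of the 21 below 0 in both animals, at -0.07 and -0.10.

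**Figure D5:**
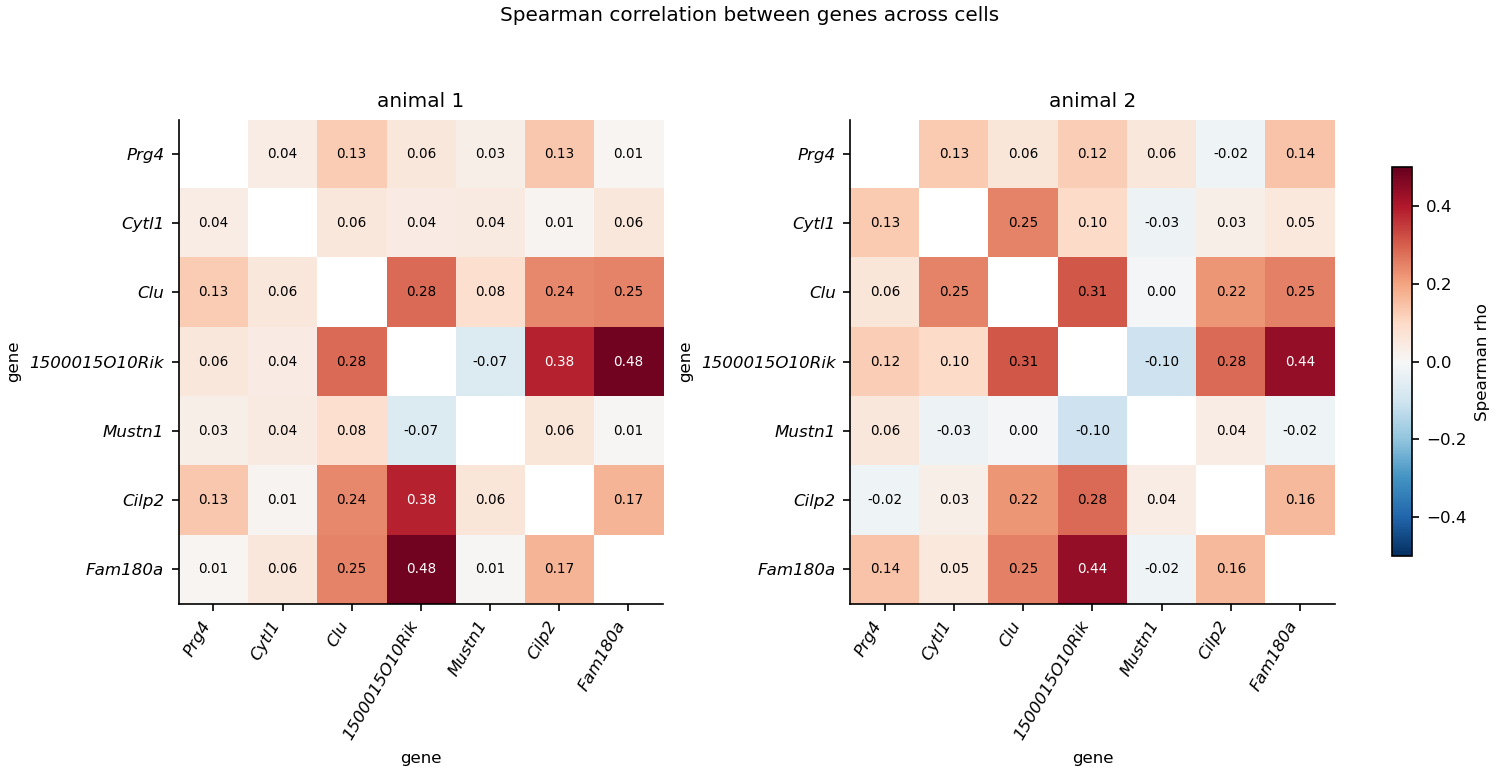
Spearman rho of log2(CPM + 10) between each pair of the 7 genes (rows and columns) over the cells of animal 1 (left) and animal 2 (right), with colour from blue (negative) to red (positive). The largest values join 1500015O10Rik with Fam180a (0.48 and 0.44), and the Prg4 row stays at or under 0.14.

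The genes most like each member, by the mean of the 2 within-animal correlations among 6465 genes, gave a similar split. For 1500015O10Rik they were Col11a1 (mean 0.64), Fmod (0.62), Sparc (0.56), Col2a1 (0.55) and Bgn (0.54), which include collagen genes (Col11a1, Col2a1), small proteoglycan genes (Fmod, Bgn) and osteonectin (Sparc). For Fam180a they were Col2a1 (0.54), the link protein gene Hapln1 (0.52), Col11a1 (0.51), Scrg1 (0.49) and Wwp2 (0.48). Cilp2 was most like Bgn (0.38), Col1a2 (0.36), Fmod (0.36), Col1a1 (0.34) and Wif1 (0.34), and so was nearer the type I collagen genes. Clu was most like Bgn (0.35), Capn6 (0.31), Sparc (0.31), 1500015O10Rik (0.30) and Wif1 (0.30).

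Nearest genes of the other 3 had lower values. Prg4 was most like Gm17455 (0.25), the Wnt inhibitor gene Wif1 (0.23), Gm15867 (0.20), Higd1a (0.19) and Sema3a (0.18). Wif1 was detected in 96 of the 125 Prg4-detected cells, and in 337 of all 653 kept cells. For Cytl1 the nearest were Col9a3 (0.22), Mgp (0.21), Npm1 (0.19), Gas5 (0.18) and Mia (0.18), of which Col9a3, Mgp and Mia belong to cartilage. Mustn1 was most like the heat-shock gene Hspb1 (0.23), Crip2 (0.21), Pdlim1 (0.20), Efhd1 (0.20) and Lims2 (0.20), with no cartilage matrix gene among them.

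Genes other than Prg4 and Cytl1 were then compared between cells gated on those 2, as counts summed per animal and gate. The remaining members stayed among the genes fitted, and their values are described with no test. The Prg4-detected gate held 46 and 79 cells, the gate with Cytl1 but no Prg4 held 14 and 11, and the gate with neither held 258 and 245. Of the Prg4-detected cells of animal 1, 12 were in each of classes 1, 2 and 4 and 6 in class 3. In animal 2, 25 were in class 1, 32 in class 2, 11 in class 4 and 6 in class 3. CPM in these comparisons carry the TMM scaling of edgeR and are means ± SD over n = 2 animals, and a ± beside a log2 fold change is its standard error.

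Between Prg4-detected cells and cells with neither gene, edgeR's quasi-likelihood test called no gene at an adjusted p under 0.05. That was 0 of 13154 higher and 0 lower (0% of genes tested), with 190 genes at an unadjusted p under 0.05 (1.44%). DESeq2's Wald test called 2 higher (0.0152%) and 24 lower (0.182%). The higher genes by DESeq2 were Gm17455, at 479.6 ± 96.2 CPM in Prg4-detected cells and 124 ± 33.3 CPM in cells with neither, and Wif1, at 1985 ± 550 CPM in Prg4-detected cells and 677 ± 105 CPM in cells with neither. Both also stood among the nearest genes of Prg4, which rests on the same cells. The lower ones by DESeq2 included the bone genes Bglap, Ibsp, Ifitm5 and Alpl, the collagenase gene Mmp13, and the matrix genes Lum, Aspn and Spp1. A single well held 30.0% of the counts of Bglap, 24.6% of those of Mmp13 and 24.5% of those of Ifitm5. Prg4 was near 0 in the osteoblast-like class and low in class 6, and the gate differs from the rest in its mix of classes. The part of that mix in the DESeq2 calls was not tested.

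Lists of known genes were read in the same contrast, and edgeR called none of their genes. Of the 18 known regulators of Prg4, all tested, 9 were on the higher and 9 on the lower side in Prg4-detected cells, with a median log2 fold change of 0.05 beside -0.14 over all genes. The transcription factor gene Creb5 was at 135 ± 25.6 CPM in Prg4-detected cells and 26.9 ± 5.29 CPM in cells with neither (log2 fold change 2.33 ± 1.54, edgeR adjusted p = 0.9999), and the growth factor gene Bmp7 at 0.385 ± 0.544 CPM in Prg4-detected cells and 12.3 ± 10.9 CPM in cells with neither. Of 14 tested superficial cartilage genes 9 were on the higher and 5 on the lower side (median 0.30). Tppp3 had the smallest unadjusted p of that list, at 311 ± 2.86 CPM in Prg4-detected cells and 750 ± 153 CPM in cells with neither, and the matrix gene Vit was at 76.2 ± 36.4 CPM in Prg4-detected cells and 19.3 ± 6.93 CPM in cells with neither.

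Of 14 tested synovial lining genes 6 were on the higher and 8 on the lower side (median -0.44). Clic5 was at 42.8 ± 51.3 CPM in Prg4-detected cells and 2.87 ± 4.05 CPM in cells with neither, an SD wider than its mean, and 34.1% of its counts were in 1 well. The hyaluronan and lubrication list had 4 on the higher and 7 on the lower side of 11 (median -0.45). In it the proteoglycan gene Vcan was at 77.6 ± 1.46 CPM in Prg4-detected cells and 177 ± 11.9 CPM in cells with neither. All 9 tendon and ligament genes were on the higher side (median 0.83), among them Tnmd at 2204 ± 758 CPM in Prg4-detected cells and 1201 ± 446 CPM in cells with neither, and 8 of 10 genes of mineralising cartilage on the lower side (median -3.14). Of 21 hyaline cartilage matrix genes 15 were on the higher side (median 0.26), with Fmod at 1384 ± 235 CPM in Prg4-detected cells and 763 ± 9.76 CPM in cells with neither. Matn3 was at 141 ± 6.24 CPM in Prg4-detected cells and 349 ± 14.2 CPM in cells with neither. Other lists leaned as far: hypoxia and glycolysis had 16 on the higher and 3 on the lower side (median 0.48). Fibroblast matrix had 1 on the higher and 13 on the lower side (median -0.87), beside a median of -0.14 over all genes. The digestion-responsive list had 12 on the higher and 4 on the lower side of 16 (median 0.32), and the part of digestion in these contrasts was not tested.

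Cells with Cytl1 but no Prg4 were few, 14 and 11. Most of them were chondrocyte-like, 11 in animal 1 and 6 in animal 2, and 3 in each animal were in class 2. The part of that mix in the comparisons with this gate was not tested. Against cells with neither gene, edgeR called 0 of 13154 genes in each direction (0%), with 1438 at an unadjusted p under 0.05 (10.9%). DESeq2's Wald test called 56 higher (0.426%) and 697 lower (5.3%). Of 21 hyaline cartilage matrix genes 19 were on the higher side (median 0.93 beside -0.91 over all genes). Mia was at 3467 ± 22.3 CPM in Cytl1-detected cells without Prg4 and 1199 ± 293 CPM in cells with neither, and Ucma at 3121 ± 244 CPM in Cytl1-detected cells without Prg4 and 1278 ± 344 CPM in cells with neither. All 14 fibroblast matrix genes were on the lower side (median -2.43), for example Igfbp6 at 25.8 ± 14.1 CPM in Cytl1-detected cells without Prg4 and 457 ± 148 CPM in cells with neither. Among the members, Fam180a was at 820 ± 89.1 CPM in Cytl1-detected cells without Prg4 and 375 ± 116 CPM in cells with neither, and Mustn1 at 15.2 ± 21.4 CPM in Cytl1-detected cells without Prg4 and 168 ± 49.3 CPM in cells with neither.

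Set directly against Cytl1-detected cells without Prg4, Prg4-detected cells again had 0 of 13154 genes called by edgeR in each direction (0%), with 1469 at an unadjusted p under 0.05 (11.2%). DESeq2 called 725 higher (5.51%) and 135 lower (1.03%). This contrast shares its cells with the others and is not a further line of evidence. Here 12 of 14 superficial cartilage genes were on the higher side (median 3.56 beside 0.61 over all genes), with Abi3bp at 283 ± 67.3 CPM in Prg4-detected cells and 71.5 ± 26.4 CPM in Cytl1-detected cells without Prg4. Pcolce2, of the same list, lay on the other side at 90.2 ± 50.9 CPM in Prg4-detected cells and 439.7 ± 116 CPM in Cytl1-detected cells without Prg4. Col22a1 and Osr1, also of that list, had 0 CPM in Cytl1-detected cells without Prg4. All 9 tendon and ligament genes were on the higher side (median 2.44) and 18 of 21 hyaline cartilage matrix genes on the lower side (median -1.05). Unrelated lists leaned to the higher side too. Pericyte and smooth muscle had 9 of 10 there (median 7.29) and cell cycle 10 of 14 (median 2.39). Synovial lining had 12 of 14 (median 1.46) and fibroblast matrix 12 of 14 (median 1.355). Of 11 cartilage transcription factor genes 9 were on the lower side (median -0.66). Of the members, Clu was at 314 ± 42.4 CPM in Prg4-detected cells and 322 ± 171 CPM in Cytl1-detected cells without Prg4, a gap under its spread. Cilp2 was at 39.4 ± 26.8 CPM in Prg4-detected cells and 98.5 ± 49.2 CPM in Cytl1-detected cells without Prg4. Mustn1 was at 135 ± 21.7 CPM in Prg4-detected cells and 15.2 ± 21.4 CPM in Cytl1-detected cells without Prg4, and Fam180a at 481 ± 131 CPM in Prg4-detected cells and 820 ± 89.1 CPM in Cytl1-detected cells without Prg4.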

How the data were processed

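The data are the whole-number counts per gene and well that the authors deposited for 2 plates. The submitters' processing notes name mm10 and CASAVA. Not given in the sources used here are the aligner, the counter, the annotation and whether duplicates were collapsed. Nonzero counts had a median of 18, and a count was not read as 1 molecule. Wells under 500 genes or over 20% mitochondrial counts were left out (5 of 658, none with Prg4 detected). No doublet caller was run on the singly sorted wells. Both plates used the same 95 well barcodes, and 280 names of barcode and quadrant occur on both, so wells were told apart by plate, quadrant and barcode.

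The 7 genes, the marker lists and the pathway lists were chosen with earlier results of these data known. Classes came from 112 marker genes without the 7 (20 components, 15 neighbours, leidenalg 0.10.2 at resolution 1, Python 3.11.15). A class took a list's name when that list had the highest mean ratio, at least 3 of its markers were raised, and at least 1 was among the 10 leading genes of the class, with no other list having more there. Sums per animal and gate were fitted with edgeR 4.0.16 (R 4.3.3, TMM, filterByExpr, Benjamini-Hochberg) with a term for the animal, which left 2 residual degrees of freedom. This block reflects that the gates came from the same animals. DESeq2 1.42.0 was an alternative. Shares have exact Clopper-Pearson 95% intervals, and a count of 0 a limit of 3 counts. Named genes were the 7, the 5 nearest each, up to 4 per list by smallest p, and up to 10 called genes in each direction. For called genes the rule allowed no well with over 20% of the counts. Genes named from DESeq2 were not held to that limit. The fit was tested on simulated counts of the Prg4 gate, with 100 genes changed at each fold. It recovered 100% of changes of 2 and of 4 (log2) at a dispersion of 0.02, where it also called 8 unchanged genes. At a dispersion of 0.5 it recovered 0% and 7%, with 0 false calls. The dispersion of the real sums is not given here, so the share recovered in them is not known.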

Additional observations from a re-analysis of the deposited data

How the results depend on the processing

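Counts of genes past an adjusted p of 0.05 stayed at 0 in all 3 gate comparisons under DESeq2 size factors in edgeR, without the low-count filter, with no replicate block (0 calls, as with the animals as a block), with gates at 1 or at 20 counts and without chondrocyte-like cells. They moved under DESeq2's Wald test, to 26 for Prg4-detected cells against neither, 753 for Cytl1-detected cells without Prg4 against neither and 860 for Prg4-detected cells against Cytl1-detected cells without Prg4. Thinning each well to 10000 counts with gates at 1 count left 0, 17 and 16 calls in the same order. Prg4-detected cells were also compared with cells of neither gene within classes, an alternative chosen after seeing the data. Only classes with enough cells of both gates in each animal entered. The comparison gave 1 call, Rasl11a, which was lower and was named after its values were seen. Each class of an animal entered as its own sum, so this fit had 10 residual degrees of freedom from the same 2 animals. Sums from the same animal are not independent replicates, so the call is not read as a difference shown across animals. The cause of these moves in the number of calls was not tested. Leaving out an animal left 1 sum per gate and no test. Prg4 was detected in 19.02% of cells as a mean of the animals, and in 52.6% at 1 count. Leaving out each animal gave 14.5% to 23.6%.

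The ratio of chondrocyte-like to other cells turned negative at Leiden resolution 2 for Prg4 (0.57 in log2 at resolution 1, -0.42 at 2), Clu (0.04 and -0.40) and Cilp2 (0.06 and -0.65), where the class named so was smaller (96 cells against 180). The correlation of Mustn1 with Prg4, 0.042 by Spearman, was -0.015 by Pearson and -0.0051 after thinning. That of Cytl1 moved the other way, from 0.085 by Spearman to 0.224 by Pearson and 0.153 after thinning. For Clu the values were 0.094, 0.117 and 0.144 in the same order. Over all of these values, 23 of 30 ratios by Prg4 detection, 15 of 21 by the chondrocyte-like class, 13 of 18 correlations and 14 of 28 detected shares moved by less than the SD of the animals. At an equal depth of 10000 counts Prg4 was found at 1 count in 21.8% of cells. The sums rest on 2 animals with 1 plate each, and on 14 and 11 cells in the smallest gate of the main setting. Without chondrocyte-like cells that gate held 3 and 5 cells, so the 0 calls of its contrasts there rest on very few cells. Cells of a class were rebuilt here and their names depend on the marker lists.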
